A study of Arabidopsis thaliana with 6 samples.

Results

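The clade A protein phosphatases of abscisic acid (ABA) are a family of type 2C protein phosphatases in Arabidopsis. Its members were taken by gene identifier as *ABI1*, *ABI2*, *HAB1*, *HAB2*, *PP2CA*, *AHG1*, *HAI1*, *HAI2* and *HAI3*, 9 of the 32833 genes listed in each library. RNA was measured in anthers of the wild type Col-0 and of the homozygous T-DNA mutant *ice1-2* in the same Col-0 background. There were 3 libraries of each genotype, A, B and C, 6 in all, from plants grown in a greenhouse under long days. Both genotypes share the tissue, the anther stages collected and the growth conditions, and no further agent or allele is given in the labels. *ice1-2* is a single insertion line with its T-DNA in the third exon of *ICE1*, which encodes a bHLH transcription factor of stomatal development and cold response. The study asked how the loss of *ICE1* affects anther dehydration and male fertility, and the phosphatases bear on this as regulators of the hormone of water deficit.

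ABA signals by removing a brake. In its absence the clade A phosphatases bind SnRK2 protein kinases and keep them dephosphorylated and inactive. When ABA is bound by receptors of the PYR/PYL/RCAR family, the receptor closes over the active site of the phosphatase, and the freed kinases phosphorylate ion channels and bZIP transcription factors. In leaf guard cells this leads to stomatal closure, and in many tissues ABA also raises the transcripts of most of the phosphatases themselves, a negative feedback. *ABI1* and *ABI2* were found through dominant ABA-insensitive mutants, *HAB1* and *HAB2* are their closest relatives, *PP2CA* and *AHG1* act strongly in seeds, and *HAI1*, *HAI2* and *HAI3* are highly ABA-induced genes.

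In what follows, values of a genotype are given in the order of libraries A, B and C. Levels are in FPKM, the fragments of a gene scaled by transcript length and by the mapped reads of its library, so they can be compared between genes. *ICE1* itself had 12.7, 9.25 and 14 FPKM in Col-0 against 12.9, 15.4 and 21.5 FPKM in *ice1-2*. The log2 fold change of *ICE1* was 0.44 (standard error 0.24, adjusted p = 0.323 from limma). A gene with an insertion in an exon can still give fragments on either side of it, so this value does not check the labels, and the mutant libraries are called the libraries labelled *ice1-2*. Pollen markers summed to 11500 to 14600 FPKM in Col-0 and 7000 to 11700 FPKM in the libraries labelled *ice1-2*. Stamen markers summed to 404 to 622 FPKM in Col-0 and 605 to 1070 FPKM in the libraries labelled *ice1-2*. Ovule and carpel markers (5 genes) summed to no more than 4.57 FPKM in Col-0 and no less than 5.41 FPKM in the libraries labelled *ice1-2*. Among these 5 only *CRC* did not overlap between genotypes. It had 0.499, 0.918 and 0.327 FPKM in Col-0 and 4.27, 3.03 and 2.52 FPKM in the libraries labelled *ice1-2*. The libraries differed in other ways as well. The 7 green tissue markers summed to 933 to 1120 FPKM in Col-0 and 1700 to 3000 FPKM in the libraries labelled *ice1-2*, and ribosomal RNA took from 0.599% (Col-0 A) to 14.75% (*ice1-2* A) of the FPKM. Of 6 tapetum markers, *TDF1* was listed at 0 in every library, and their sum was 2090 FPKM in Col-0 A but 238 and 190 FPKM in Col-0 B and C. The part of these differences in the results was not tested. In whole anthers, fewer cells of a type and less RNA per cell cannot be told apart.

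Sequences upstream of 3 of the genes are shown first because the family differs in the core of the ABA-responsive element, ACGTG, the letters bound by the bZIP factors of ABA signalling. The windows are the 300 bases before the gene start of RefSeq in TAIR10.1, and capitals mark ACGTG on either strand (CACGT on the strand shown). *PP2CA* lies on the minus strand of chromosome 3 with its window at chr3:3585851-3586150, *HAI2* on the minus strand of chromosome 1 with its window at chr1:2282829-2283128, and *ABI2* on the plus strand of chromosome 5 with its window at chr5:23086822-23087121. Each is written 5′ to 3′ in the direction of transcription.
PP2CA: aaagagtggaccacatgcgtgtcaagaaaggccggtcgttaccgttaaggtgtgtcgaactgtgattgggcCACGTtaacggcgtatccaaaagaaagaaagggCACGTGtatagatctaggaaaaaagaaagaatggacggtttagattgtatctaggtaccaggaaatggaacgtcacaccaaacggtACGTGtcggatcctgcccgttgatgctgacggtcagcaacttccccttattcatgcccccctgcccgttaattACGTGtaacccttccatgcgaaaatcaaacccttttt
HAI2: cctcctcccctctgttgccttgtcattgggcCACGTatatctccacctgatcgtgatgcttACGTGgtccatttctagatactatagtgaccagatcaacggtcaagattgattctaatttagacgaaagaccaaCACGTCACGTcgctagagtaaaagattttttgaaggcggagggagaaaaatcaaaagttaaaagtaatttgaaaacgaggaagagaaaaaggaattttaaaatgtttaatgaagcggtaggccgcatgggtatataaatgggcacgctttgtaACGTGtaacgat
ABI2: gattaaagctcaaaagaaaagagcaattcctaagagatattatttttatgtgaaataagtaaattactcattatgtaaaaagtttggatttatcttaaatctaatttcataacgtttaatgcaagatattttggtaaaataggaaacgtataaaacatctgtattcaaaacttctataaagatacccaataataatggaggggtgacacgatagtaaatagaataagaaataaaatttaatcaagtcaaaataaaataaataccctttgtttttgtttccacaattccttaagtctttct
*PP2CA*, the most abundant member, held 5 matches, of which a pair overlapped in the palindrome CACGTG and was counted on both strands. *HAI2* also held 5, and *ABI2* held 0.

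ACGTG was present in 7 of the 9 windows and in 25.6% of the 27443 windows of protein-coding genes cut the same way. At least 2 matches were present in 5 of the 9 and in 9.94% of all windows. *HAB2*, *AHG1* and *HAI3* held 2 each, those of *AHG1* overlapping in a CACGTG, *ABI1* and *HAB1* held 1 each, and *HAI1*, like *ABI2*, held 0. The longer form ACGTGNC was in 4 of the 9 windows against 9.46% of all, and CACGTG in 2 against 7.09%. CANNTG, the E-box class of sites that bHLH factors such as ICE1 bind, was in all 9 windows and in 61.9% of all windows. CATGTG, which is contained in that class, was in 3 against 13.1%, and CCGAC, the core bound by the CBF factors, in 2 against 13.9%. Every motif was searched on both strands, and a match describes these letters only.

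In TAIR10.1 *ABI1* (AT4G26080) lies on chromosome 4 from 13219915 to 13222376, *ABI2* (AT5G57050) on chromosome 5 from 23087122 to 23089631, *HAB1* (AT1G72770) on chromosome 1 from 27389948 to 27393327, and *HAB2* (AT1G17550) on chromosome 1 from 6034270 to 6037398. *PP2CA* (AT3G11410) spans 3583782 to 3585850 on chromosome 3, *AHG1* (AT5G51760) 21026805 to 21029188 on chromosome 5, and *HAI1* (AT5G59220) 23894404 to 23896939 on the same chromosome. *HAI2* (AT1G07430) lies on chromosome 1 from 2280746 to 2282828 and *HAI3* (AT2G29380) on chromosome 2 from 12608675 to 12610350. The encoded proteins run from 362 residues in HAI3 to 511 residues in HAB1 and in HAB2. Over the 36 pairs of proteins identity ranged from 40.5% to 80.0% with a median of 46.7%. ABI1 and ABI2 were the most alike (80.0%), followed by HAB1 and HAB2 (75.4%) and by HAI2 and HAI3 (70.8%). PP2CA was nearest to HAI1 (64.3%), and AHG1 stood farthest from the others, with 49.6% to its nearest relative HAI3.

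Reads were longer than any exact run that transcripts of the members share. The longest exact run was 33 bases, between *HAB1* and *HAB2*, and *ABI1* and *ABI2* shared a run of 26 bases. Only *ABI1* overlapped a gene on the opposite strand, by 22 bases (0.894% of its length), and that gene, AT4G26070, was at 0.458 to 1.14 FPKM. The sources used here do not say whether fragments were assigned by strand.

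In anthers the family was dominated by *PP2CA* and *ABI1*. *PP2CA*, a phosphatase of seed and guard cell ABA responses, was at 65.7, 62.5 and 100 FPKM in Col-0 and at 74.3, 61.7 and 79.0 FPKM in the libraries labelled *ice1-2*. It was first of the 9 members in all 6 libraries, and the genotypes overlapped. *ABI1*, the founding member and a general repressor of ABA responses, was at 41.1, 33.6 and 65.9 FPKM in Col-0 and at 36.5, 37.8 and 43.9 FPKM in the libraries labelled *ice1-2*. It was second in all 6 libraries, with *PP2CA* 1.52 to 2.03 times as high within a library. Col-0 C was the highest library of both genes.

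*HAB1*, *HAI1* and *HAB2* formed a middle group whose order changed from library to library. *HAB1*, which acts on stomatal closure and germination, was at 26.7, 18.6 and 24.7 FPKM in Col-0 and at 20.7, 14.5 and 27.0 FPKM in the libraries labelled *ice1-2*. *HAB2*, its close relative, had 18.4, 13.5 and 21.2 FPKM in Col-0 and 16.4, 14.8 and 21.5 FPKM in the libraries labelled *ice1-2*. *HAI1*, an ABA- and drought-induced phosphatase, had 20.2, 14.6 and 26.2 FPKM in Col-0 and 11.4, 15.2 and 26.7 FPKM in the libraries labelled *ice1-2*. *HAB1* and *HAI1* ranged over ranks 3 to 5 among libraries and *HAB2* over ranks 4 and 5. *HAB1* was above *HAB2* in every library except *ice1-2* B. In each of the 3 genes the genotypes overlapped.

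*HAI2* and *ABI2* followed at lower levels. *HAI2*, also named *AIP1*, an ABA-induced phosphatase, was at 3.41, 7.79 and 11.8 FPKM in Col-0 and at 4.18, 3.36 and 4.19 FPKM in the libraries labelled *ice1-2*. Col-0 B and C were high and the other 4 libraries lay close together, so that Col-0 A was among the mutant values. *ABI2*, the close relative of *ABI1*, was at 3.73, 4.23 and 6.85 FPKM in Col-0 and at 2.41, 1.90 and 3.98 FPKM in the libraries labelled *ice1-2*. The genotypes overlapped in a single position, *ice1-2* C above Col-0 A. *HAI2* and *ABI2* held ranks 6 and 7, with *ABI2* above *HAI2* only in Col-0 A.

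*HAI3* and *AHG1* were last in every library. *HAI3*, the third gene of the HAI group, was at 1.70, 0.331 and 0.468 FPKM in Col-0 and at 0.228, 0.788 and 0.984 FPKM in the libraries labelled *ice1-2*, and was eighth in all 6. *AHG1*, a phosphatase that acts mainly in seeds and germination, had 0.0784, 0.177 and 0.0746 FPKM in Col-0, was listed at 0 in *ice1-2* A and B, and had 0.121 FPKM in *ice1-2* C. Neither reached an FPKM of 1 in 3 libraries, the filter for the test, so that 7 of the 9 members were tested.

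**Figure D1:**
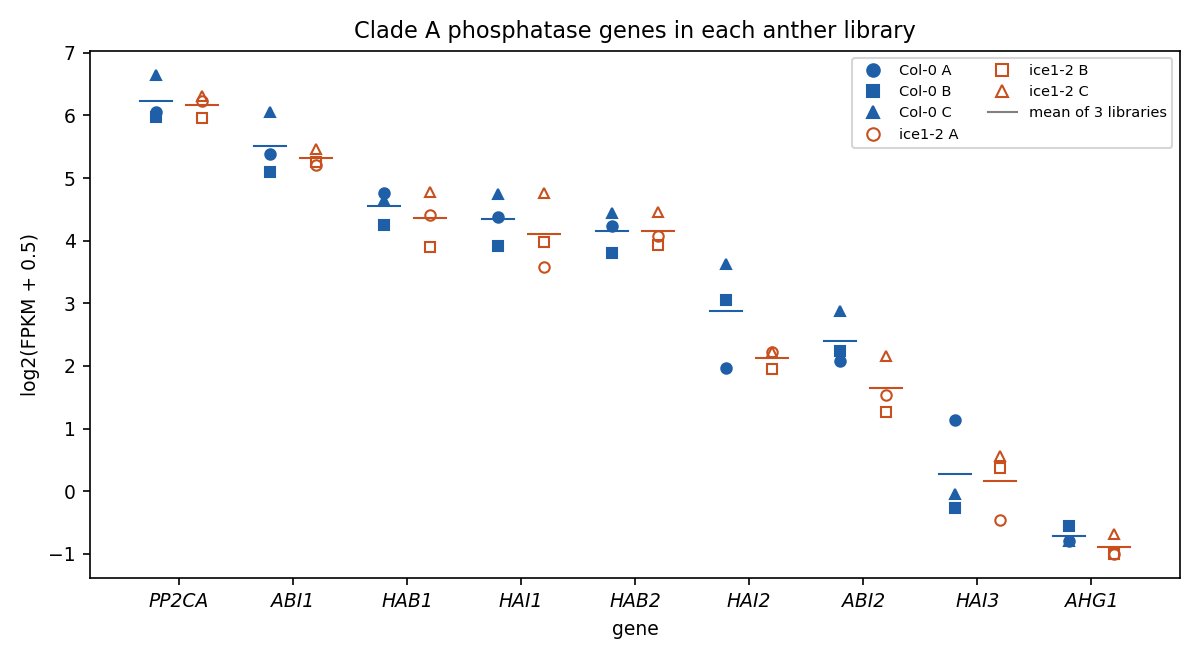
Level of each clade A phosphatase gene in each library as log2(FPKM + 0.5), with filled blue symbols for Col-0, open orange symbols for the libraries labelled *ice1-2*, circles, squares and triangles for libraries A, B and C, and lines for the mean of 3 libraries. *PP2CA* (61.7 to 100 FPKM) and *ABI1* (33.6 to 65.9 FPKM) stand above the other genes and *HAI3* and *AHG1* below them, and no gene has its 2 genotypes apart.

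The 9 genes summed to 181, 155 and 257 FPKM in Col-0 and to 166, 150 and 207 FPKM in the libraries labelled *ice1-2*. The means were 198 ± 53.0 and 175 ± 29.6 FPKM (SD, n = 3 each), a difference smaller than the spread in either genotype. *PP2CA* and *ABI1* together gave 59.0% to 66.7% of the sum, and these 2 with *HAB1*, *HAB2* and *HAI1* gave 91.9% to 96.0%. The share of *PP2CA* was 38.5% ± 2.01 in Col-0 against 41.3% ± 3.32 in the libraries labelled *ice1-2* (SD, n = 3 each), and that of *ABI1* was 23.3% ± 2.05 and 22.8% ± 2.14 (SD, n = 3 each).

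*ABI2* was the one tested member whose share of the family had the genotypes apart. It gave 2.06%, 2.72% and 2.66% of the sum in Col-0 against 1.45%, 1.27% and 1.92% in the libraries labelled *ice1-2*. The means were 2.48% ± 0.365 and 1.55% ± 0.336 (SD, n = 3 each), and the difference of the means was -0.937 percentage points, or between -1.15 and -0.798 with any single library left out. An exact permutation test of 3 against 3 libraries cannot go below 0.1, which any gene with its libraries apart reaches. The shares of 7 tested members were compared, and no other test of the *ABI2* share was made. The FPKM of *ABI2* itself overlapped between genotypes. Within a library *ABI1* was 11.0, 7.95 and 9.63 times as high as *ABI2* in Col-0 and 15.2, 19.9 and 11.0 times in the libraries labelled *ice1-2*, so that the ratios of Col-0 A and *ice1-2* C met. The corresponding ratio of *HAB1* to *HAB2* stayed between 0.979 and 1.45, and that of *HAI1* to *HAI2* ran from 1.87 to 6.38.

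**Figure D2:**
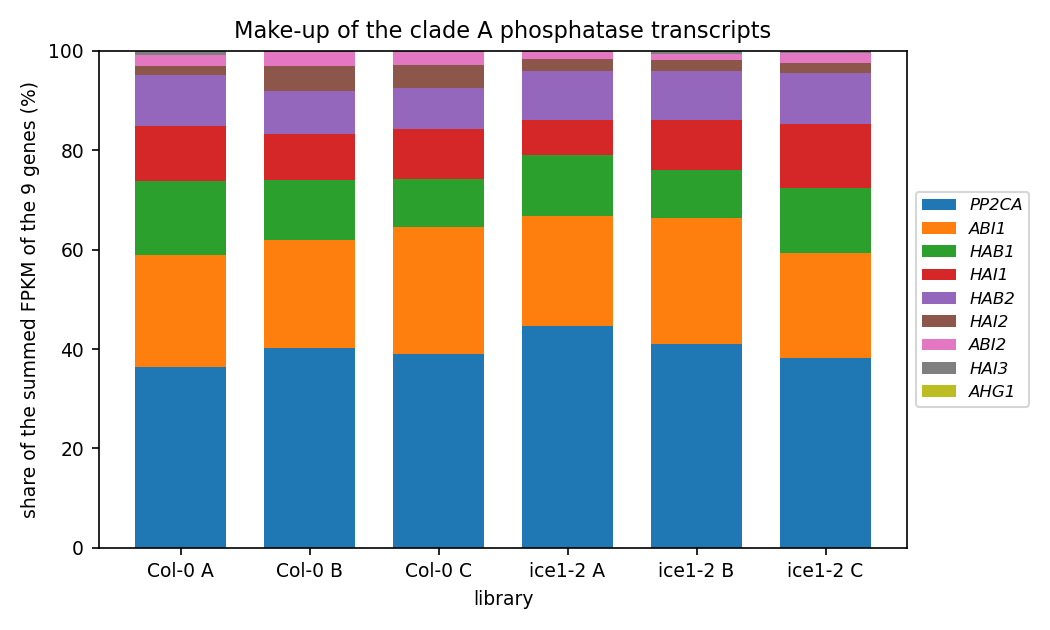
Share of each gene in the summed FPKM of the 9 clade A phosphatase genes, in percent, as stacked bars from 0 to 100 for the 6 libraries. *PP2CA* and *ABI1* fill 59.0% to 66.7% of every bar, and the band of *ABI2* is 2.06% to 2.72% in Col-0 and 1.27% to 1.92% in the libraries labelled *ice1-2*.

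Between genotypes, no clade A phosphatase gene passed the test. Tested genes were fitted with limma on log2(FPKM + 0.5), p was adjusted by the Benjamini-Hochberg method over the 18858 genes tested, and a call needed an adjusted p under 0.05 together with a log2 fold change over 1 or under -1. Of the 7 tested members 0 were called, beside 1.78% of all tested genes (335, of which 291 were higher and 44 lower). At an adjusted p under 0.05 whatever the fold, 0 members were higher and 0 lower, beside 1.62% and 0.27% of all tested genes. The libraries of one genotype lay wholly above those of the other for 0 members, beside 19.8% of tested genes higher and 7.39% lower in the libraries labelled *ice1-2*. An unadjusted p under 0.05 from limma was reached by 1 of the 7 tested members, *ABI2*, and by 4043 of the 18858 tested genes.

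The log2 fold changes of the tested members ran from -0.74 to -0.0033. All 7 were below 0, whereas 34.8% of all tested genes were, and their median was -0.19 beside 0.15 for all tested genes. After median-ratio scaling of the libraries, which moved the median of all tested genes to -0.017, the median of the members was -0.37. The count below 0 rested on single libraries, with 4 of 7 below 0 without Col-0 C, 4 without *ice1-2* B, 5 without *ice1-2* A and 6 without Col-0 A. Col-0 C was the highest library for 4 of the 7 tested members and *ice1-2* C for the other 3, and these libraries were highest for 11.5% and 40.5% of all tested genes.

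*ABI2* had the lowest adjusted p of the family. Its log2 fold change was -0.74 (standard error 0.30, 95% interval -1.43 to -0.05) with an adjusted p of 0.203 from limma and an unadjusted p of 0.0376, and 2.87% of all tested genes had a fold change as low or lower. After median-ratio scaling it was -0.91 (adjusted p = 0.123 from limma). Under all the alternatives it stayed between -1 and -0.51 with adjusted p from 0.0714 to 0.45. *ABI2* is among the genes that the study took from its own comparison of these libraries.

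*HAI2* had a log2 fold change of the same size, -0.74 (standard error 0.38, 95% interval -1.60 to 0.11), with an adjusted p of 0.292 from limma. This value moved in both directions with single Col-0 libraries. Without Col-0 C it was -0.38 with an adjusted p of 0.583 from limma. Without Col-0 A it was -1.20 with an adjusted p of 0.0453 from limma, and *HAI2* was then the 1 member called. Over all alternatives the adjusted p ran from 0.0453 to 0.583. Col-0 A, low in *HAI2*, was the Col-0 library with high tapetum markers. Summed over the 6 markers these were at 2090, 238 and 190 FPKM in Col-0 and at 645, 1260 and 1690 FPKM in the libraries labelled *ice1-2*, so that the 2 libraries with the lowest tapetum sum were the 2 with the highest *HAI2*. The tapetum sum rests on *LTP12*, a lipid transfer protein gene, and the part of tapetum content in the *HAI2* value was not tested.

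**Figure D3:**
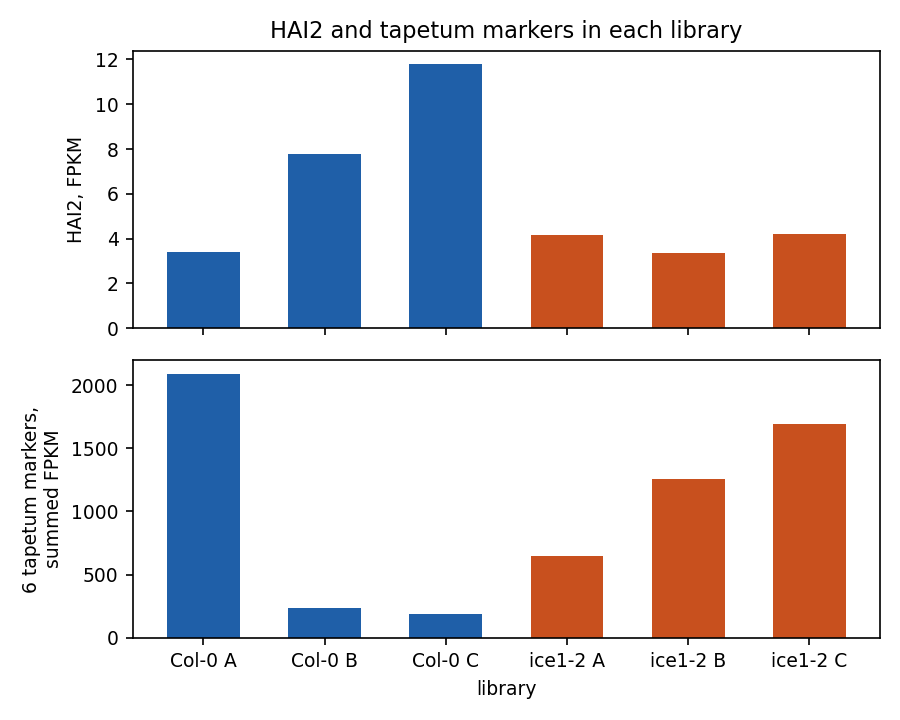
FPKM of *HAI2* (upper bars) and summed FPKM of 6 tapetum markers (lower bars) in the 6 libraries, blue for Col-0 and orange for the libraries labelled *ice1-2*. Col-0 B and C are highest in *HAI2* (7.79 and 11.8 FPKM) and lowest in the tapetum sum (238 and 190 FPKM).

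The abundant members gave fold changes near 0. *PP2CA* had a log2 fold change of -0.06 (95% interval -0.58 to 0.46, adjusted p = 0.902 from limma) and *HAB2* of -0.0033 (95% interval -0.52 to 0.51, adjusted p = 0.995). *ABI1* and *HAB1* were both at -0.19 (95% interval -0.77 to 0.39 for each), with adjusted p of 0.695 and 0.693 from limma. *HAI1* was at -0.24 (95% interval -0.98 to 0.51, adjusted p = 0.71). None of these 5 intervals reached a log2 fold change of 1 in either direction, whereas those of *ABI2* and *HAI2* extended below -1. In a fit without the filter on low values *HAI3* had a log2 fold change of -0.12 (95% interval -1.16 to 0.93, adjusted p = 0.909 from limma) and *AHG1* of -0.18 (95% interval -0.48 to 0.12, adjusted p = 0.503), both understated by the pseudocount at such levels.

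**Figure D4:**
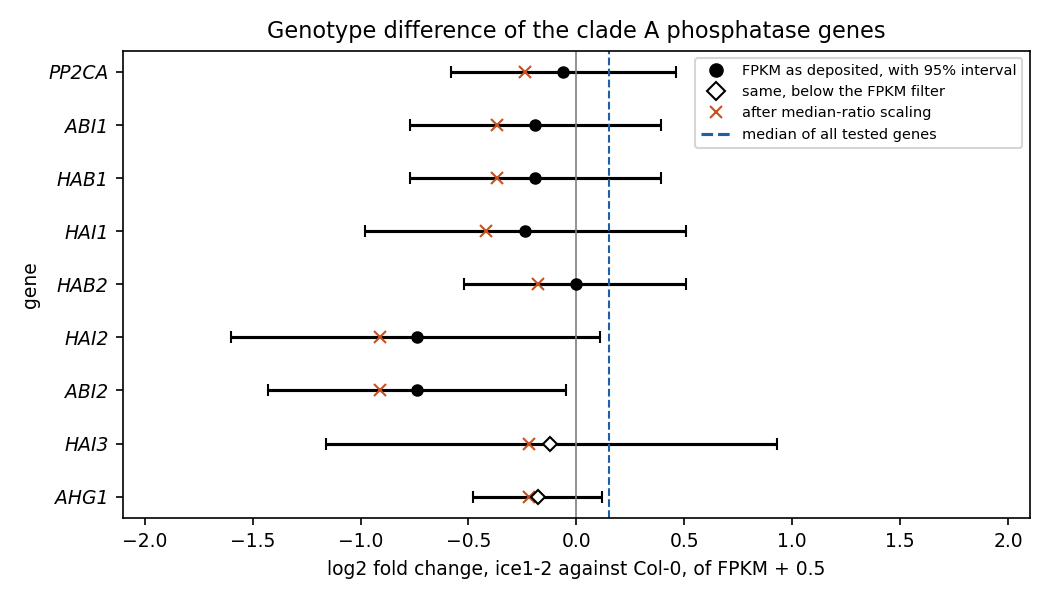
Log2 fold change of FPKM + 0.5 between the libraries labelled *ice1-2* and Col-0 for the 9 genes, with 95% intervals from limma (filled circles for tested genes, open diamonds for genes below the filter), crosses after median-ratio scaling and a dashed line at the median of all tested genes, 0.15. The 7 tested genes lie between -0.74 and -0.0033, and only the interval of *ABI2* (-1.43 to -0.05) leaves out 0.

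Over the 6 libraries the genes most like *ABI2* in log2(FPKM + 0.5) were *NAC004* (Pearson r = 0.9969), AT1G73750 (r = 0.9967) and AT5G63370 (r = 0.9898), of 18857 genes ranked. *NAC004*, a NAC family gene, had 1.75, 2.06 and 4.49 FPKM in Col-0 and 0.905, 0.566 and 2.19 FPKM in the libraries labelled *ice1-2*. These genes were ranked by r over 6 libraries that hold 2 genotypes, and r is given as a description. Within the family *HAI2* had r = 0.8110 and *ABI1* r = 0.7200 to *ABI2*, and 3.46% and 6.42% of all ranked genes had a higher r.

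Of the rest of the ABA pathway, a single gene passed the test. In 8 lists of 80 genes for ABA synthesis, breakdown, reception, kinases, transcription factors, regulators of the phosphatases, guard cell effectors and ABA-induced genes, 59 genes were tested. Of these 0 were higher and 1 lower at an adjusted p under 0.05, beside 1.62% and 0.27% of all tested genes. Their median log2 fold change was 0.064, with 31 above and 28 below 0. The libraries lay apart for 8 genes, higher, and for 3, lower, beside 19.8% and 7.39%. The genes of these lists named next, apart from *LTI30* and *RAB18*, were picked after their values were seen.

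The receptors, which inhibit the phosphatases when ABA is bound, had 8 of 14 genes tested and a median log2 fold change of 0.25. *PYR1* was at 48.1 to 66.4 FPKM in Col-0 and 42.1 to 55.0 FPKM in the libraries labelled *ice1-2*, and *PYL10* and *PYL13* were listed at 0 in all 6 libraries. The 14 receptors summed to 187, 141 and 217 FPKM in Col-0 and 170, 207 and 231 FPKM in the libraries labelled *ice1-2*. Divided by the sum of the phosphatases this gave 1.03, 0.91 and 0.844 in Col-0 and 1.02, 1.38 and 1.11 in the libraries labelled *ice1-2*, ratios that overlapped by Col-0 A alone. The means of the ratio were 0.929 ± 0.0966 and 1.17 ± 0.186 (SD, n = 3 each).

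The SnRK2 kinases, the family that holds the targets of the phosphatases, had 9 of 10 genes tested, and none passed. *SNRK2.3*, one of the kinases that ABA activates, had 16.3, 19.1 and 34.2 FPKM in Col-0 and 12.9, 14.1 and 14.3 FPKM in the libraries labelled *ice1-2*, and its libraries lay apart (log2 fold change -0.66, adjusted p = 0.203 from limma). *SNRK2.7* had 19.2, 17.8 and 29.4 FPKM in Col-0 and 35.4, 36.4 and 43.6 FPKM in the libraries labelled *ice1-2*, apart in the other direction (0.81, adjusted p = 0.0935 from limma). Over the 9 tested kinases the libraries lay apart for 4, higher, and for 1, lower, beside 19.8% and 7.39% of all tested genes. *SNRK2.2*, *SNRK2.3* and *OST1*, the ABA-activated kinases, together made 0.355, 0.468 and 0.338 of the phosphatase sum in the libraries labelled *ice1-2* and 0.394, 0.444 and 0.438 in Col-0, so that the genotypes overlapped.

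Genes that make ABA (7 of 10 tested) had a median log2 fold change of -0.10 and genes that break it down (2 of 4 tested) of 0.53, and none passed. *NCED3*, the drought-induced enzyme of the committed step of ABA synthesis, had 1.14, 3.47 and 5.94 FPKM in Col-0 and 1.39, 1.67 and 3.15 FPKM in the libraries labelled *ice1-2*, low in Col-0 A as *HAI2* was. *CYP707A3*, an ABA hydroxylase, had 20.7, 5.09 and 4.53 FPKM in Col-0 and 11.9, 12.9 and 13.5 FPKM in the libraries labelled *ice1-2*. Without Col-0 A its log2 fold change was 1.32 with an adjusted p of 0.0201 from limma, against 0.65 and 0.469 with all 6 libraries. *KAT1*, a potassium channel of guard cells, had the same order of libraries in Col-0, 17.3, 2.91 and 2.52 FPKM, beside 12.1, 13.0 and 15.9 FPKM, and passed without Col-0 A as well (2.14, adjusted p = 0.00551 from limma).

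Among 17 genes that ABA induces, 13 were tested and 1 passed. *LTI30*, a dehydrin, had 8.43, 9.06 and 6.03 FPKM in Col-0 and 0.529, 0.994 and 0.121 FPKM in the libraries labelled *ice1-2*, with no overlap (log2 fold change -3.06, standard error 0.34, adjusted p = 0.0127 from limma). It passed the filter through the Col-0 libraries alone, and its adjusted p was 0.0605 without the filter and 0.0596 without Col-0 B. *RAB18*, a dehydrin used as a reporter of ABA responses, had 0.856, 3.13 and 5.59 FPKM in Col-0, had 0.0843 FPKM in *ice1-2* B, and stood at 0 in the lists of *ice1-2* A and C. It did not meet the filter, and its adjusted p without the filter was 0.094 from limma. Of the 13 tested genes 8 were below 0 and 5 above, and none but *LTI30* passed. *RD29A*, *NAC019*, *RD26* and *HB-7* had log2 fold changes of -0.72, -0.32, -0.69 and -0.43. *RD22*, *HB-12* and *COR6.6* had log2 fold changes of 0.76, 0.42 and 0.24. Each of these genes had an adjusted p of 0.105 or more from limma, and the median of the 13 was -0.022.

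The phosphatases of neighbouring clades were taken from the same fit. Of clade B, which acts on MAP kinases, 3 of 4 genes were tested with a median log2 fold change of -0.21, and of clade D, which acts on plasma membrane proton pumps, 8 of 9 with a median of -0.0051. None of them passed, as none of the 7 clade A genes did, and no difference between the clades was tested. Guard cell markers (7 genes) summed to 39.2 to 58.4 FPKM in Col-0 and 21.1 to 33.7 FPKM in the libraries labelled *ice1-2*. Most of the Col-0 sum was *TGG1*, a myrosinase, at 38.7, 39.1 and 33.6 FPKM in Col-0 against 8.30, 12.3 and 16.4 FPKM, the 1 marker of the list that passed (-1.60, adjusted p = 0.0311 from limma). *MYB60* had a log2 fold change of -0.042 and *KAT1* of 1.31, with adjusted p of 0.949 and 0.246 from limma. *FAMA*, the bHLH gene of guard cell differentiation, had 0.907, 0.909 and 1.30 FPKM in Col-0 and 0.265 and 0.114 FPKM in *ice1-2* B and C, and was listed at 0 in *ice1-2* A. It did not meet the filter, and its adjusted p without the filter was 0.0802 from limma. *GC1*, a defining guard cell marker, was at or near 0 in all 6 libraries, at most 0.177 FPKM. *HT1* and *SLAC1* were at most 0.252 and 0.213 FPKM and at 0 in *ice1-2* A, with a counting error that could not be computed. Both lay wholly lower in the libraries labelled *ice1-2*, beside 7.39% of all tested genes. Neither met the filter, and their adjusted p without it was 0.245 and 0.236 from limma.

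**Figure D5:**
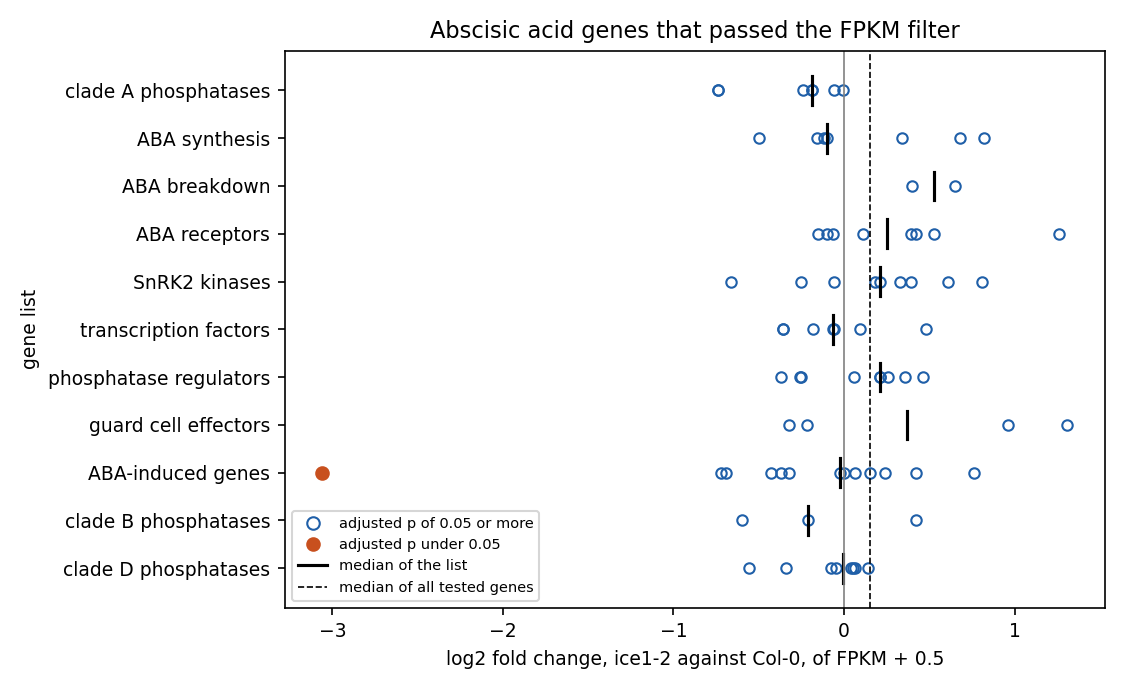
Log2 fold change of FPKM + 0.5 between the libraries labelled *ice1-2* and Col-0 for each tested gene of the clade A phosphatases and of 10 other lists, as circles (filled where the adjusted p was under 0.05), with the median of each list as a bar and the median of all tested genes, 0.15, as a dashed line. *LTI30* at -3.06 is the 1 filled circle.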

How the data were processed

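Anther RNA was sequenced in 3 libraries per genotype. The authors trimmed reads with Trim Galore, mapped them to TAIR10 with TopHat2, assembled transcripts with StringTie and Cufflinks-CuffMerge, counted reads with HTSEQ 0.6.0 and deposited FPKM per gene, used here as deposited. The labels name single-end as well as paired-end sequencing, and the study's methods paired-end sequencing.

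The test took the 18858 genes, of 27825 above 0 in any library, that reached an FPKM of 1 in 3 or more libraries. The linear model of limma 3.58.1 (R 4.3.3), with its variance trend and without terms other than genotype, was applied to log2(FPKM + 0.5), and p was adjusted by Benjamini-Hochberg. Fold changes are on that scale and understate those of low genes. Members that failed the filter were taken from a fit without it. No source used here says that the libraries come from separate plants, so p-values measure the spread between these libraries, which may be technical.

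Depth is unknown: the best of many steps tried between low FPKM values placed 37.8% to 63.9% of them within 0.05 of a whole read. A single fixed step would place 10% there by chance, and the rate for the best of many steps was not computed. With the other values off a whole read, reads could not be recovered and no counting interval is given.

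On simulated data of 18858 genes the share of changed genes recovered was 62.7% at a log2 change of 1.5, 86.6% at 2 and 92.4% at 3, and 6 unchanged genes were called, or 0 when none was changed. Noise was drawn for each gene separately from its spread within genotypes, without shifts shared by a library. Changes under 1.5, such as those of the members, were not simulated, so these shares do not apply to them.

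Gene positions, windows of 300 bases and translated coding sequences came from RefSeq TAIR10.1 (Biopython 1.88). Exact runs under 20 bases were not searched. Tables and figures were made in Python 3.11.15 (pandas 2.3.3, numpy 2.4.6, matplotlib 3.10.9).

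The members and lists were chosen with earlier results of these data known. Named genes were the 9 members, *ICE1*, those that passed in each list (up to 4 per direction, by size of change), *RAB18*, *LTI30*, and the 3 genes most like *ABI2*, whose change was that of *HAI2* to 2 decimals, the largest of the members. Genes named beyond this rule were chosen after their values were seen.

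Alternatives were pseudocounts of 0.1 and 1, no filter, ribosomal RNA left out, median-ratio scaling, quality weights per library, the library letter as a block, no limit on the fold, and each library left out in turn.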

Additional observations from a re-analysis of the deposited data

How the results depend on the processing

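Members called numbered 0 under every alternative except without Col-0 A, where *HAI2* was called, so that with each library left out in turn the number ran from 0 to 1. The genes called in all moved far more, from 335 to 28 with no filter, 163 with median-ratio scaling, 644 with ribosomal RNA left out, 803 with library quality weights and 35 with the replicate block, and from 17 (without Col-0 B) to 594 (without Col-0 A) with a library left out, with 27 without Col-0 C, 28 without *ice1-2* B, 33 without *ice1-2* C and 295 without *ice1-2* A. They were 275 and 354 with pseudocounts of 0.1 and 1, and 357 with no limit on the fold. ABA pathway genes at an adjusted p under 0.05 numbered 1, but 0 with no filter, 2 with ribosomal RNA left out, 2 with library quality weights (*RBOHD*, an NADPH oxidase, and *LTI30* in both) and 0 to 4 with a library left out (0 without Col-0 B, 4 without Col-0 A).

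*ABI2*, *HAI2* and *AHG1* kept a log2 fold change below 0 under every alternative run. With ribosomal RNA left out, that of *HAB2* was 0.064 and that of *PP2CA* 0.0086, and with library quality weights that of *HAI3* was 0.022. With a library left out in turn, the log2 fold change ran from -0.40 to 0.08 for *ABI1*, from -0.40 to 0.035 for *HAB1*, from -0.18 to 0.14 for *HAB2*, from -0.18 to 0.15 for *PP2CA*, from -0.57 to 0.027 for *HAI1* and from -0.39 to 0.32 for *HAI3*. Causes were not tested.

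The deviations of same-letter libraries from their genotype means correlated with r = -0.212, 0.0502 and 0.118 for A, B and C. Those of libraries with different letters had r from -0.286 to 0.221. With 3 libraries per genotype, these values cannot decide whether the letters pair the samples. With the replicate block 0 members were called and 35 genes in all. Depth is not known, so the values of *HAI3* and *AHG1* under 1 FPKM carry a counting error that could not be computed.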
